A study of Mus musculus with 6 samples.

Results

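Transcripts of 9 genes that make up the signalling base of the T cell receptor complex were described in activated group 2 innate lymphoid cells (aILC2s) of the mouse lung. The genes were taken by name, with earlier results of these data known: the CD3 chains *Cd3d*, *Cd3e*, *Cd3g* and *Cd247*, the kinases *Lck*, *Fyn* and *Zap70*, and the adaptors *Lat* and *Lcp2*. All 9 were among the 16381 genes listed, and all 9 passed the filter on low values, as did 14419 genes in all. The cells came from WT BALB/cJ mice of 6 to 8 weeks, described as female although 4 of the 6 libraries hold Y-linked transcripts, that had received 0.5 µg of IL-33 through the nose on each of 3 days, and they were sorted as live CD45+ lineage-negative ST2+ CD127+ cells. They were then kept for 24 h in culture, 1 group in 250 µM melatonin and the other in the vehicle DMSO, and bulk RNA sequencing was done on 3 libraries of each group. Both groups therefore share the IL-33 challenge, the sort and the culture, and no unchallenged or uncultured cells were compared here. The lineage mixture that removed cells before culture held antibodies to T cell antigens (TCRβ, TCRγδ, CD3ε, CD5 and CD4), to CD335, the product of *Ncr1* on natural killer cells, and to the myeloid antigens Gr-1, CD11b and CD11c, among others. Nothing in the labels says whether the 3 libraries of a group came from separate mice, so the p-values measure only the spread between these libraries. That spread may be technical among libraries of 1 source, but the sex-linked transcripts given below show more than 1 source in the melatonin group.

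In T cells, the clonotypic receptor chains have no signalling tail of their own and are assembled with the CD3γ, CD3δ, CD3ε and ζ chains, whose tails carry tyrosine motifs called ITAMs. The SRC family kinases LCK and FYN phosphorylate the ITAMs, ZAP70 docks on them and is activated there, and ZAP70 then phosphorylates LAT and SLP-76, the product of *Lcp2*, on which phospholipase C, TEC kinases and VAV proteins gather. ILC2s carry no antigen receptor on the surface and respond to alarmins such as IL-33, but transcripts of CD3 chains and of receptor constant genes are known in innate lymphoid cells. The comparison asks how 24 h of melatonin changed the transcripts of this module in ILC2s.

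The estimated counts per library were between 17056261 and 20511703. The ILC2 transcription factor *Gata3* was between 17890 and 24588 normalized counts in all 6 libraries, and all 14 ILC2 markers were listed. Of these, 9 fell with melatonin and 2 rose, beside 24.7% and 24.5% of all genes tested by limma at an adjusted p under 0.05, with a median log2 fold change of -0.81, and *Thy1* (-2.88), *Klrg1* (-2.16) and *Il7r* (-1.06) were among those that fell. Melatonin replicate 1 stood apart from melatonin replicates 2 and 3. On the second principal component, with 16.0% of the variance, it lay at 79.7, against -53.8 and -45.7. The Y-linked genes *Uty*, *Ddx3y*, *Eif2s3y* and *Kdm5d* were present in the 3 vehicle libraries and in melatonin replicate 1 and listed at 0 in melatonin replicates 2 and 3, where *Xist* reached 579 and 1091 normalized counts against at most 13.6 in the others. Sex therefore partly follows the treatment. Results are also given without melatonin replicate 1, where sex and treatment cannot be told apart, and with it as the only melatonin library, where all libraries hold Y-linked transcripts. The library numbers in the labels run in separate blocks for the 2 groups, so a batch that follows them cannot be told apart from the treatment.

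With melatonin, 6 of the 9 transcripts were called lower and 2 higher. *Cd3d*, *Cd3e*, *Cd3g*, *Cd247*, *Lck* and *Lat* fell, *Fyn* and *Lcp2* rose, and *Zap70* did not pass the test. The calls of *Cd3d* and *Lat* held in only 1 of 6 fits with 1 library left out, and that of *Lcp2* in 2 of 6. Across all genes tested by limma, 24.7% fell and 24.5% rose, 49.2% in all. The median log2 fold change of the 9 genes was -0.61, and that of all genes tested was -0.00. In the 6 genes that fell, every melatonin library lay below every vehicle library, as was the case for 30.3% of all genes tested. In *Fyn* and *Lcp2* every melatonin library lay above, as for 30.0% of all genes. In a bulk sample, fewer cells of a type and less RNA per cell cannot be told apart.

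**Figure D1:**
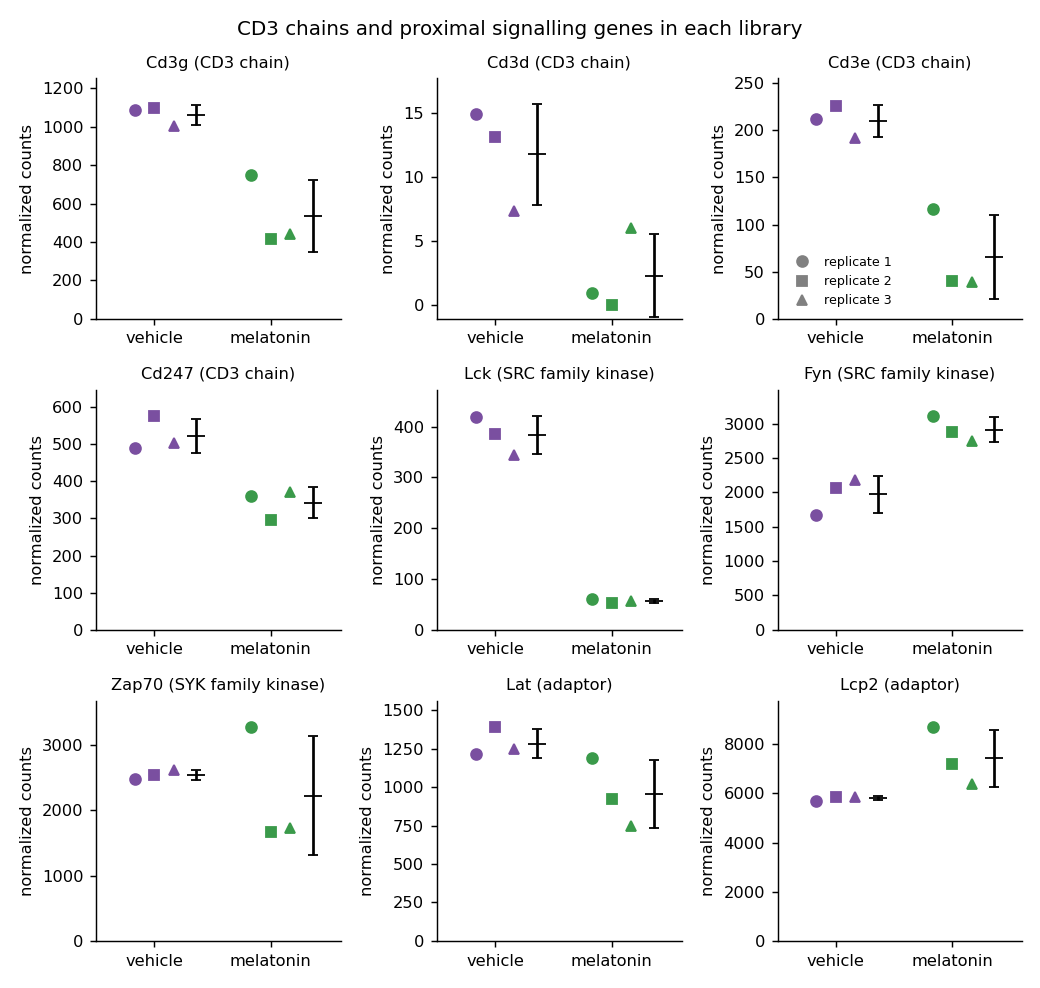
Normalized counts of the 9 genes in each of the 6 libraries, with symbols for the replicate number and bars for the mean and SD of the 3 libraries of each group. The melatonin values of *Lck* lie together between 52.4 and 59.8, while melatonin replicate 1 lies above the other two in *Cd3e*, *Cd3g* and *Zap70*.

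The CD3 chains γ, δ and ε are encoded side by side on chromosome 9. On GRCm39, *Cd3g* (ENSMUSG00000002033) spans chr9:44880870-44891735 on the minus strand and *Cd3d* (ENSMUSG00000032094) spans chr9:44893083-44899173 on the plus strand. The pair is transcribed in opposite directions from starts 1348 bases apart. *Cd3e* (ENSMUSG00000032093) follows at chr9:44910037-44920925 on the minus strand. The 3 neighbours were each called lower, *Cd3d* on few counts. The 250 bases before the start of each canonical transcript are therefore shown, 5′ to 3′ on the strand of the gene, from the GRCm39 genome with GENCODE M39 starts. The windows are chr9:44891736-44891985 for *Cd3g*, chr9:44892833-44893082 for *Cd3d* and chr9:44920912-44921161 for *Cd3e*. Capitals mark matches, on either strand, to the core letters of 6 factor motifs. The ETS motif was searched as AGGAAG, and the RUNX motif, which has been described in many T cell promoters, as TGTGGT. The motif of GATA factors was searched as AGATAA, and the one that TCF-1 and LEF-1 share as CTTTGA. The E-box was searched as CACGTG, and the antioxidant response element, which NRF2 binds, as TGACNNNGC.
Cd3g: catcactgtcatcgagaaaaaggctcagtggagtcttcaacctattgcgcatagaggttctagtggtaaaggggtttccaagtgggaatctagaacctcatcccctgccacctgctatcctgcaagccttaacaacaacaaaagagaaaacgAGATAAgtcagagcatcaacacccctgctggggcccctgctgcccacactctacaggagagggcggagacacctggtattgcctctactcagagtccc
Cd3d: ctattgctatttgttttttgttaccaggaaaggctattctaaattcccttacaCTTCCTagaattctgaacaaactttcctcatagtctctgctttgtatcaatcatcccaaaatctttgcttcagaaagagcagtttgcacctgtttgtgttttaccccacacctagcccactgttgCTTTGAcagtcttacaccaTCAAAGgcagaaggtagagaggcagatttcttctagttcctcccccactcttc
Cd3e: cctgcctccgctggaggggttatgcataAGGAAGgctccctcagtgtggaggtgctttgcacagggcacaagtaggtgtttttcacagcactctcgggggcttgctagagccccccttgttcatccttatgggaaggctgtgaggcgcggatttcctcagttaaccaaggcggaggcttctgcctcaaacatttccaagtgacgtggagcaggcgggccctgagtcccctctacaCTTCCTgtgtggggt
In the *Cd3e* window the capitals are 2 ETS matches. In the *Cd3d* window they are 1 ETS match and 2 TCF-1/LEF-1 matches, and in the *Cd3g* window 1 GATA match. The antioxidant response letters occur in none of the 3. Of the 16333 windows of the same length before listed genes, 28.2% held the ETS letters, 12.4% the TCF-1/LEF-1 letters, 8.32% the GATA letters and 10.3% the antioxidant response letters. A match describes the sequence only and is not a measured binding site.

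*Cd3g* encodes CD3γ, which pairs with CD3ε. It had 1086, 1097 and 1004 normalized counts in the vehicle libraries and 751, 417 and 440 in the melatonin libraries. The groups did not overlap, and melatonin replicate 1 was the highest of its group. The mean fell from 1062 ± 50.7 to 536 ± 186 (SD, n = 3), with a log2 fold change of -1.04 ± 0.20 (SE, limma adjusted p = 0.00305). With melatonin replicate 1 as the only melatonin library, the log2 fold change was -0.50 (adjusted p = 0.00644, limma), a fit that assumes a lone library to vary as the vehicle libraries do.

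*Cd3e* encodes CD3ε, the chain shared by both CD3 pairs. Its normalized counts were 212, 226 and 192 with vehicle and 117, 40.4 and 39.2 with melatonin. All 3 melatonin values were lower than any vehicle value, and melatonin replicate 1 held 2.93 times the mean of the other two. The group means were 210 ± 17.0 and 65.5 ± 44.4 (SD, n = 3), and the log2 fold change was -1.86 ± 0.38 (SE, limma adjusted p = 0.00384). It was -0.84 with melatonin replicate 1 alone (adjusted p = 0.00819, limma).

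*Cd3d* encodes CD3δ, the other partner of CD3ε, and stood near the detection limit. Normalized counts were 14.9, 13.1 and 7.34 with vehicle and 0.934, 0 and 6.03 with melatonin. The melatonin values amount to 1, 0 and 6 estimated counts. Only vehicle replicates 1 and 2 reached the filter's cut of 10. The mean went from 11.8 ± 3.96 to 2.32 ± 3.25 (SD, n = 3), and the log2 fold change of -2.37 ± 0.77 (SE, limma adjusted p = 0.0310) carried the widest 95% interval of the 9 genes, from -4.12 to -0.62. At this depth the call rests on few counts: it held in 1 of the 6 fits that left out 1 library, and the estimate was -3.73 with a pseudocount of 0.1 and -0.84 with a pseudocount of 10.

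*Cd247* (ENSMUSG00000005763) encodes ζ, which has the most ITAMs of the chains and also serves Fc and natural killer cell receptors. It lies apart from the others, at chr1:165616250-165704846 on the plus strand. It had 490, 575 and 502 normalized counts with vehicle and 360, 295 and 372 with melatonin, without overlap, and here melatonin replicate 1 was not the highest. The means were 522 ± 46.1 and 342 ± 41.9 (SD, n = 3), a log2 fold change of -0.61 ± 0.13 (SE, limma adjusted p = 0.00449). The gene body overlaps 9 other annotated genes, of which 7 are antisense and 3 are listed, *Pou2f1* among them. Whether their exons overlap those of *Cd247* was not tested. The kit does not mark the strand, so antisense reads from any shared stretch cannot be separated by strand.

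Genes on the marker lists of other lymphocytes moved in the same direction as the CD3 chains, but this was not particular to them. Of the ILC2 markers 9 of 14 fell and 2 rose, and of the myeloid markers 6 of 7 fell and none rose. The shares of all genes tested were 24.7% and 24.5%. Of 10 T cell markers, *Cd4*, *Cd8a*, *Cd8b1* and *Cd5* were not listed, 5 were tested and all 5 fell, beside 24.7% of all genes tested. *Trac*, however, kept its call in 3 of 5 fits with 1 library left out and passed the filter only through vehicle replicate 2. The summed level of the listed markers went from between 5135 and 5552 normalized counts with vehicle to between 1768 and 2444 with melatonin. *Trbc1* and *Trbc2* made up most of that sum, and *Trac* and *Cd6* did not exceed 13.1 in any library. Of 8 natural killer cell or ILC1 markers, 5 were tested and all 5 fell, beside the same 24.7%, from a summed level between 6039 and 7313 to between 85.0 and 214. *Gzma*, a cytotoxic granule protease, made up most of that sum. *Ncr1*, *Tbx21* and *Klrd1* reached the filter's cut of 10 normalized counts only in vehicle libraries. Their falls were thus nearly fixed by the filter and add little to the count. The defining receptor gene *Ncr1* had 104, 101 and 114 normalized counts with vehicle and 0, 0 and 1.01 with melatonin. Cells with CD335 or a T cell receptor on the surface had been sorted out before culture, and the part of any that remained in the fall of the CD3 chains and of *Lck* was not tested.

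The SRC family kinases went in opposite directions. *Lck* fell by 2.74 on the log2 scale, and *Fyn* rose by 0.57. *Lck* (ENSMUSG00000000409), the kinase that T cells use first after receptor contact, lies at chr4:129442137-129467434 on the minus strand. The mouse gene is known to have a proximal promoter, used mainly in thymocytes, and a distal promoter, used mainly in mature T cells. The annotated starts that correspond to them are 15243 bases apart. Gene-level values do not separate transcripts from these starts, so both 250-base windows are shown, chr4:129467435-129467684 for the distal and chr4:129452192-129452441 for the proximal start, both on the minus strand and marked as above.
Lck distal: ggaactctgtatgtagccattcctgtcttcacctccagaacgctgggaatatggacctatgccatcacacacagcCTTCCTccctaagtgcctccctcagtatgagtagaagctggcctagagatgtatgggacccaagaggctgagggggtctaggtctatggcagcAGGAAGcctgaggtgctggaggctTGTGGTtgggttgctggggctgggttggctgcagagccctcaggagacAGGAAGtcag
Lck proximal: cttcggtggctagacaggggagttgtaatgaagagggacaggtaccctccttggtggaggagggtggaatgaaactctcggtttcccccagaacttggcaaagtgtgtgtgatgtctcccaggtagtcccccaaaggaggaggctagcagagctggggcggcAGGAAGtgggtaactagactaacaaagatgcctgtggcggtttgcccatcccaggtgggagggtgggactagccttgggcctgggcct
The distal window holds 3 ETS matches and 1 RUNX match, and the proximal window holds 1 ETS match. RUNX letters occurred in 12.8% of the windows of all listed genes. Over the 10 windows of the 9 genes, with *Lck* counted at both starts, ETS letters were found in 9, all but that of *Cd3g*, beside 28.2% of the windows of all listed genes. The antioxidant response letters were found in none.

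*Lck* had 419, 385 and 344 normalized counts in the vehicle libraries and 59.8, 52.4 and 57.3 in the melatonin libraries. The 2 groups were far apart, and melatonin replicate 1 did not stand out from the other melatonin libraries, at 1.09 times their mean. The mean fell from 383 ± 37.5 to 56.5 ± 3.72 (SD, n = 3), a 6.66-fold lower level on the log2(value + 1) scale. The log2 fold change was -2.74 ± 0.15 (SE), with a 95% interval from -3.08 to -2.39 and a limma adjusted p of 1.46e-05. Leaving out each library in turn moved it only between -2.81 and -2.67, and it was -2.65 with melatonin replicate 1 as the only melatonin library.

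*Fyn* (ENSMUSG00000019843, chr10:39244851-39442227, plus strand) encodes the SRC family kinase that can replace part of LCK function in T cells and is broadly expressed. Its values were 1671, 2071 and 2185 normalized counts with vehicle and 3109, 2882 and 2754 with melatonin. Every melatonin library was above every vehicle library. The mean rose from 1976 ± 270.2 to 2915 ± 179 (SD, n = 3), a log2 fold change of 0.57 ± 0.11 (SE, limma adjusted p = 0.00303) that passed in each of the 6 fits with 1 library left out.

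*Zap70* (ENSMUSG00000026117, chr1:36800837-36821905, plus strand), the SYK family kinase that reads phosphorylated ITAMs, was the one gene of the 9 with overlapping groups. Vehicle libraries had 2470, 2532 and 2619 normalized counts, and melatonin libraries had 3265, 1666 and 1732. Melatonin replicate 1 was above all vehicle libraries, and melatonin replicates 2 and 3 were below all of them. The log2 fold change was -0.27 ± 0.22 (SE), with a 95% interval from -0.77 to 0.24 (limma adjusted p = 0.344). Without melatonin replicate 1 it was -0.58 (limma adjusted p = 0.000274), and with that library as the only melatonin library it was 0.36 (limma adjusted p = 0.00734). The direction for *Zap70* therefore depended on which melatonin libraries were used.

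The adaptors also moved in opposite directions, and both calls were near the threshold. *Lat* (ENSMUSG00000030742, chr7:125962996-125968810, minus strand) encodes the membrane adaptor that ZAP70 phosphorylates. It had 1212, 1388 and 1248 normalized counts with vehicle and 1189, 920 and 750 with melatonin, and the highest melatonin value lay just under the lowest vehicle value. The mean went from 1283 ± 92.7 to 953 ± 221 (SD, n = 3), with a log2 fold change of -0.45 ± 0.15 (SE, limma adjusted p = 0.0372). The call held in 1 of 6 fits with 1 library left out, and the value was -0.11 with melatonin replicate 1 alone (limma adjusted p = 0.419).

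*Lcp2* (ENSMUSG00000002699, chr11:33996920-34042426, plus strand) encodes SLP-76, the cytosolic scaffold that is brought to LAT. It had 5710, 5848 and 5850 normalized counts with vehicle and 8688, 7209 and 6384 with melatonin. The groups did not overlap, and the melatonin libraries were spread far more widely than the vehicle libraries. The mean rose from 5803 ± 80.7 to 7427 ± 1167 (SD, n = 3), with a log2 fold change of 0.34 ± 0.11 (SE, limma adjusted p = 0.0277). The rise passed in 2 of 6 fits with 1 library left out, and it was 0.58 with melatonin replicate 1 alone (limma adjusted p = 0.000599).

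**Figure D2:**
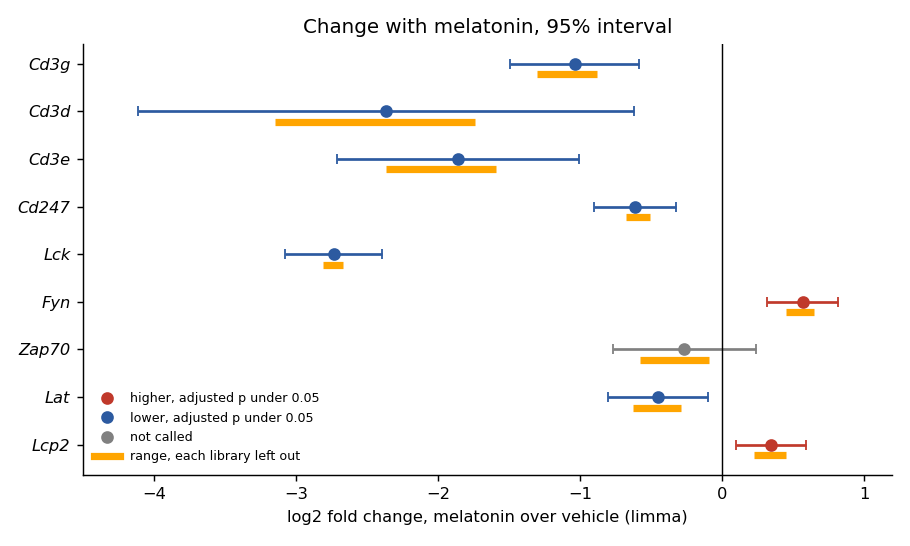
Log2 fold change of melatonin over vehicle for the 9 genes (limma, points), with the 95% interval (thin bars) and the range of the estimate when each of the 6 libraries is left out in turn (thick bars). *Lck*, at -2.74, has a narrow interval, *Cd3d*, at -2.37, a wide one, and the interval of *Zap70* spans 0.

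The 9 genes differed in how far melatonin replicate 1 lay from the other melatonin libraries. It was the highest of the 3 in 7 of 9 genes, all but *Cd3d* and *Cd247*, and in 37.2% of all genes tested. Its value over the mean of melatonin replicates 2 and 3 was 2.93 for *Cd3e*, 1.92 for *Zap70*, 1.75 for *Cd3g*, 1.42 for *Lat* and 1.28 for *Lcp2*, but between 1.08 and 1.10 for *Cd247*, *Lck* and *Fyn*. Without it, 6 of the 9 fell and 2 rose, beside 25.3% and 24.2% of all genes, but *Cd3d* was no longer called (limma adjusted p = 0.0627) and *Zap70* was. With it as the only melatonin library, 5 fell and 3 rose, beside 26.6% and 24.2%. *Cd3d*, *Cd3e*, *Cd3g*, *Cd247* and *Lck* were called lower and *Fyn* and *Lcp2* higher in that fit as well.

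Levels of different genes were compared as normalized counts per kilobase of the canonical transcript. With vehicle, *Lcp2* was the most abundant at 1537 ± 21.4, followed by *Zap70* at 1108 ± 32.7. Next came *Cd3g* at 1032 ± 49.3 and *Lat* at 956 ± 69.1, whose libraries overlapped, and then *Cd247* at 460 ± 40.6 and *Fyn* at 443 ± 60.6, which overlapped as well. *Lck* at 181 ± 17.7, *Cd3e* at 143 ± 11.6 and *Cd3d* at 5.48 ± 1.84 (SD, n = 3 for each) closed the order without overlap. When lengths were taken over all merged exons instead, the order from the third place to the seventh became *Lat*, *Cd3g*, *Fyn*, *Lck* and *Cd247*, so these places depend on which transcripts were made.

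With melatonin the order changed in the middle and at the low end. Per kilobase, *Fyn* at 654 ± 40.2 was now above *Cd3g* at 521 ± 181 in mean, with overlapping libraries, and *Lck* at 26.7 ± 1.76 came below *Cd3e* at 44.7 ± 30.4, again with overlap. By merged exon length *Lck* kept its place above *Cd3e* with melatonin, so the change at the low end holds for canonical lengths only. *Lcp2* at 1967 ± 309 had no overlap with the next gene, *Zap70* at 969 ± 394, which overlapped *Lat* at 710 ± 165 (SD, n = 3 for each). *Cd247* followed *Cd3g* at 302 ± 36.9, and *Cd3d* was last at 1.08 ± 1.51. CD3ε is an obligate partner of both CD3γ and CD3δ in the assembled complex, and its transcript was well below that of *Cd3g* in every library.

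**Figure D3:**
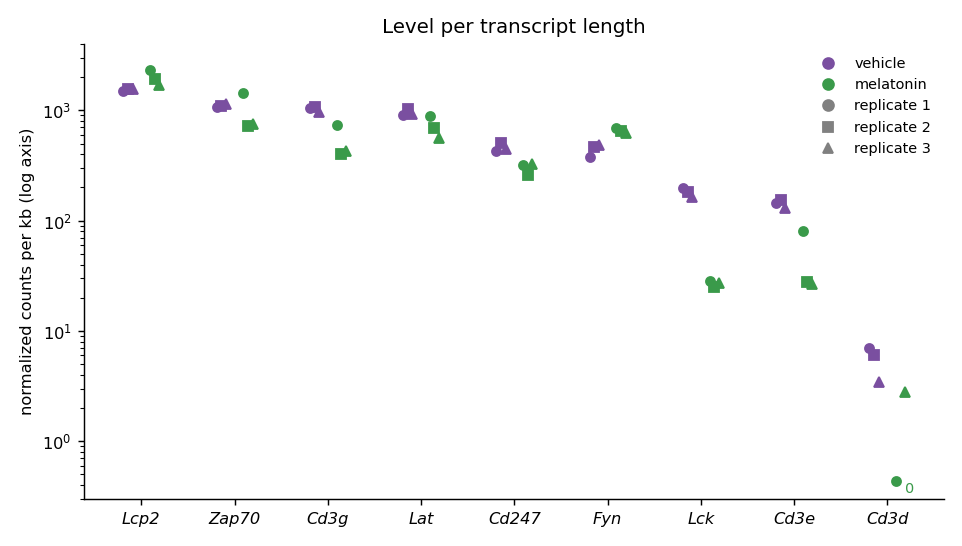
Normalized counts per kilobase of canonical transcript on a log axis for the 9 genes, ordered by the vehicle mean, with colours for the group and symbols for the replicate number. *Lcp2* is the highest in both groups, *Lck* drops from 181 to 26.7 in mean, and the *Cd3d* value of 0 in melatonin replicate 2 is printed as a 0 at the bottom of the axis.

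The balance of the SRC kinases restates the separate changes of *Lck* and *Fyn*. Neither gene overlapped between the groups and they moved in opposite directions, so their ratio could not overlap and its permutation p was fixed. The per-kilobase ratio of *Fyn* to *Lck* was 1.89, 2.55 and 3.01 with vehicle and 24.7, 26.1 and 22.8 with melatonin, and the groups lay far apart. *Lck* made up 29.2 ± 4.92% of the sum of *Lck* and *Fyn* with vehicle and 3.93 ± 0.26% with melatonin (SD, n = 3, exact two-sided permutation p = 0.1, the smallest that 3 against 3 can give). Within the adaptors, the ratio of *Lcp2* to *Lat* rose in mean from 1.61 ± 0.10 to 2.80 ± 0.21 (SD, n = 3), without overlap (exact two-sided permutation p = 0.1). The values of the 2 genes fixed this outcome in the same way.

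The makeup of the CD3 transcripts was read beside their sum. Summed per kilobase, the 4 chains went from 1642 ± 90.2 to 869 ± 229 (SD, n = 3), without overlap (exact two-sided permutation p = 0.1). As no chain overlapped between the groups and each fell, the sum could not overlap. *Cd3g* gave 62.9 ± 1.44% of the sum with vehicle and 59.2 ± 5.17% with melatonin (SD, n = 3), and the difference was within the spread of the libraries (exact two-sided permutation p = 0.4). *Cd3e* went from 8.73 ± 0.25% to 4.83 ± 1.97% without overlap (exact two-sided permutation p = 0.1), while the share of *Cd247*, 28.0 ± 1.50% and 35.8 ± 6.96%, overlapped (exact two-sided permutation p = 0.3). The *Cd3g* to *Cd3e* ratio was 7.28, 6.91 and 7.44 with vehicle and 9.14, 14.7 and 16.0 with melatonin, lowest of the melatonin group in replicate 1. *Zap70* per unit of summed CD3 transcript was 0.68 ± 0.05 with vehicle and 1.09 ± 0.16 with melatonin (SD, n = 3), again without overlap (exact two-sided permutation p = 0.1).

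The receptor chains that the CD3 complex would serve were also measured. The T cell receptor genes were drawn from the genes listed, so receptor genes that were absent were not counted. Of the coreceptors and other surface receptors added by name, *Cd4*, *Cd8a*, *Cd8b1* and *Cd5* were not listed. Of the 14 genes read, 10 were tested, and 8 of these fell and none rose, beside 24.7% and 24.5% of all genes tested. Among those that fell, *Trac* and *Cd2* passed the filter only through vehicle libraries. The median log2 fold change of the 10 genes was -1.56. *Trbc1* and *Trbc2*, the β-chain constant genes, had means of 1449 ± 58.4 and 3558 ± 165 normalized counts with vehicle and 474 ± 110 and 1455 ± 224 with melatonin (SD, n = 3). Their log2 fold changes were -1.64 ± 0.15 (SE, limma adjusted p = 9.74e-05) and -1.30 ± 0.11 (SE, limma adjusted p = 7.30e-05). Because these genes are near-identical copies, the division of reads between them is uncertain.

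The α-chain constant gene *Trac*, in contrast to the β genes, was nearly absent, at 5.60, 13.1 and 6.30 normalized counts with vehicle and 1.87, 0 and 1.01 with melatonin. *Trdc*, the δ-chain constant gene, was between 97.6 and 111 with vehicle and between 39.2 and 58.3 with melatonin. Its log2 fold change was -1.07 ± 0.21 (SE, limma adjusted p = 0.00357). Of the γ-chain constant genes, which also share sequence, *Trgc1* fell from 4049 ± 296 to 1430 ± 481 normalized counts and *Trgc2* from 48.5 ± 9.20 to 10.8 ± 3.26 (SD, n = 3). *Trgc4* had 2738, 2896 and 2436 with vehicle and 3688, 2032 and 2064 with melatonin, so that melatonin replicate 1 again lay above all vehicle libraries and the other two below them, as in *Zap70*. It did not pass (log2 fold change -0.11, limma adjusted p = 0.692). *Cd28*, the costimulatory receptor of T cells, fell from 191 ± 11.1 to 66.8 ± 27.4 (SD, n = 3, log2 fold change -1.57, limma adjusted p = 0.00150).

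**Figure D4:**
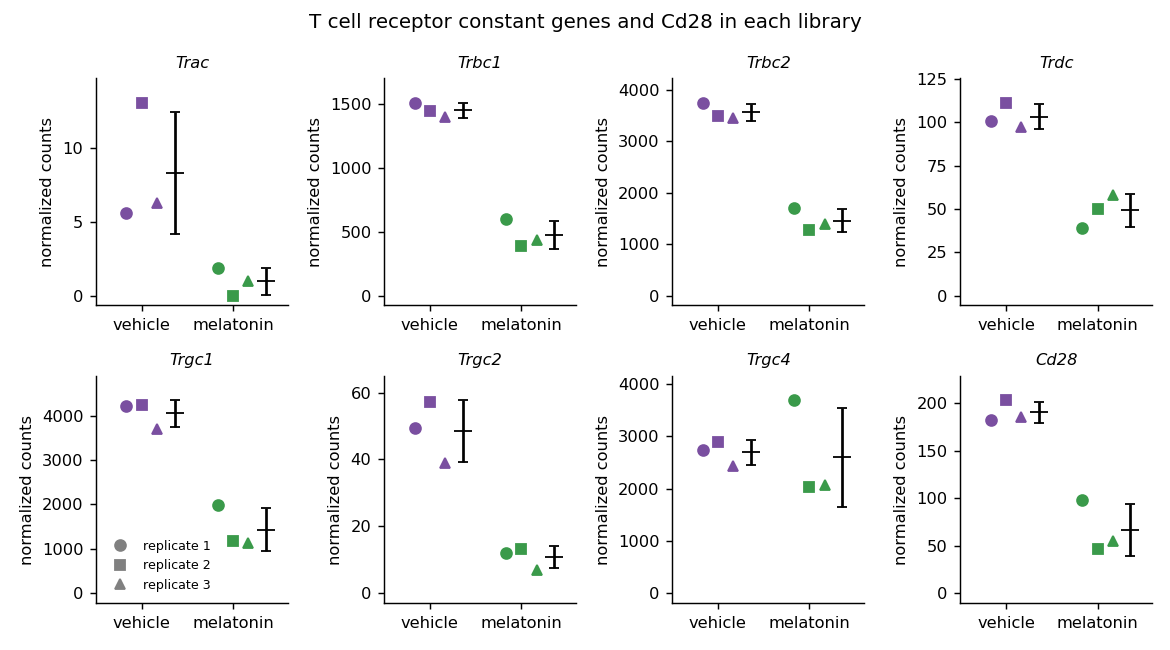
Normalized counts of the T cell receptor constant genes and of *Cd28* in each of the 6 libraries, with symbols for the replicate number and bars for the mean and SD of each group. All but *Trgc4* have every melatonin library below every vehicle library, and *Trac* does not exceed 13.1 in any library.

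The wider antigen receptor pathway did not move as one. Of 48 further kinases, phosphatases, adaptors and exchange factors, all were listed and 46 tested. Of these 11 rose, 15 fell and 20 were not called, with a median log2 fold change of -0.11. Those that fell make up 32.6% of the 46 and those that rose 23.9%, beside 24.7% and 24.5% of all genes tested.

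Regulators of the SRC kinases were read first. *Csk*, which phosphorylates the inhibitory tail of LCK and FYN, had 2006, 1843 and 2155 normalized counts with vehicle and 1436, 1002 and 1350 with melatonin, a log2 fold change of -0.68 ± 0.14 (SE, limma adjusted p = 0.00364). *Ptpn22*, a phosphatase that acts with CSK on LCK and ZAP70, fell by 0.51 on the log2 scale (limma adjusted p = 0.00587). *Pag1*, the membrane anchor of CSK, had a log2 fold change of 0.05 with a 95% interval from -0.32 to 0.43. *Ptprc*, which encodes CD45 and removes the inhibitory phosphate, was high in every library, between 9139 and 11842 normalized counts, with a log2 fold change of -0.04 and an interval from -0.27 to 0.20. *Ptpn6*, which encodes the phosphatase SHP-1, had a log2 fold change of -0.32 with an interval from -0.69 to 0.05. These last 3 did not pass the test.

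Among genes whose mean was 100 normalized counts or more, *Ubash3a*, *Sla*, *Grap2* and *Was* fell by more than 1 on the log2 scale. *Ubash3a*, a suppressor of receptor signalling in T cells, went from 607, 610 and 566 normalized counts to 34.6, 66.6 and 56.3. Its log2 fold change was -3.53 ± 0.23 (SE, limma adjusted p = 2.40e-05). Its relative *Ubash3b*, a phosphatase that acts on ZAP70 and SYK, rose from 954 ± 11.4 to 1406 ± 87.1 (SD, n = 3, log2 fold change 0.56, limma adjusted p = 0.000806). *Sla*, an adaptor that acts with CBL to lower surface receptor, fell by 1.82 on the log2 scale, from between 2780 and 3291 normalized counts to between 787 and 1058. Its relative *Sla2* was not called, with a log2 fold change of 0.24 and a 95% interval from -0.11 to 0.60. *Grap2*, which encodes GADS, the link between LAT and SLP-76, had 991, 860 and 967 normalized counts with vehicle and 325, 311 and 416 with melatonin, a log2 fold change of -1.43 ± 0.13 (SE, limma adjusted p = 9.76e-05). *Was*, an actin regulator brought to SLP-76 through NCK, fell by 1.26 on the log2 scale, to between 686 and 729 normalized counts.

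Genes further downstream were read next. *Plcg1*, which encodes phospholipase Cγ1, had a log2 fold change of 0.26 with a 95% interval from -0.00 to 0.52 and was not called (limma adjusted p = 0.0918). *Rasgrp1*, a RAS activator that responds to diacylglycerol, rose by 0.84 on the log2 scale, and the SLP-76 partners *Nck1* and *Nck2* rose by 0.64 and 0.84. The exchange factors split: *Vav1* fell from 4727 ± 77.8 to 3506 ± 400 (SD, n = 3, log2 fold change -0.44, limma adjusted p = 0.00438), while *Vav3* rose from 66.3, 89.0 and 105 to 373, 286 and 198 (log2 fold change 1.69, limma adjusted p = 0.000934). Other genes called higher were *Skap1*, *Prkcq*, *Bcl10*, *Cblb* and *Yes1*, with log2 fold changes between 0.31 and 1.41, and *Yes1* kept its call in 2 of 6 fits with 1 library left out.

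*Syk*, the ZAP70 relative used by B cells and myeloid cells, was low and fell from 114 ± 12.2 to 70.2 ± 11.6 normalized counts (SD, n = 3, log2 fold change -0.69, limma adjusted p = 0.0177), a call that held in 4 of 6 fits with 1 library left out. The ITAM adaptor genes *Fcer1g* and *Tyrobp*, which serve Fc and natural killer cell receptors, fell as well. *Fcer1g* had 197, 181 and 115 normalized counts with vehicle and 18.7, 29.5 and 29.2 with melatonin (log2 fold change -2.62, limma adjusted p = 0.000204). *Tyrobp* had 111, 74.0 and 75.5 with vehicle and 0, 13.1 and 14.1 with melatonin. Both are also expressed by myeloid and natural killer cells: 6 of 7 tested myeloid markers fell, beside 24.7% of all genes tested, though *Itgax* and *Adgre1* passed in only 3 of 6 fits with 1 library left out. *Adgre1* and *S100a8* passed the filter only through vehicle libraries. The list had summed levels between 1461 and 1689 with vehicle and between 364 and 845 with melatonin. The part in these falls of any such cells left after the sort was not tested.

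**Figure D5:**
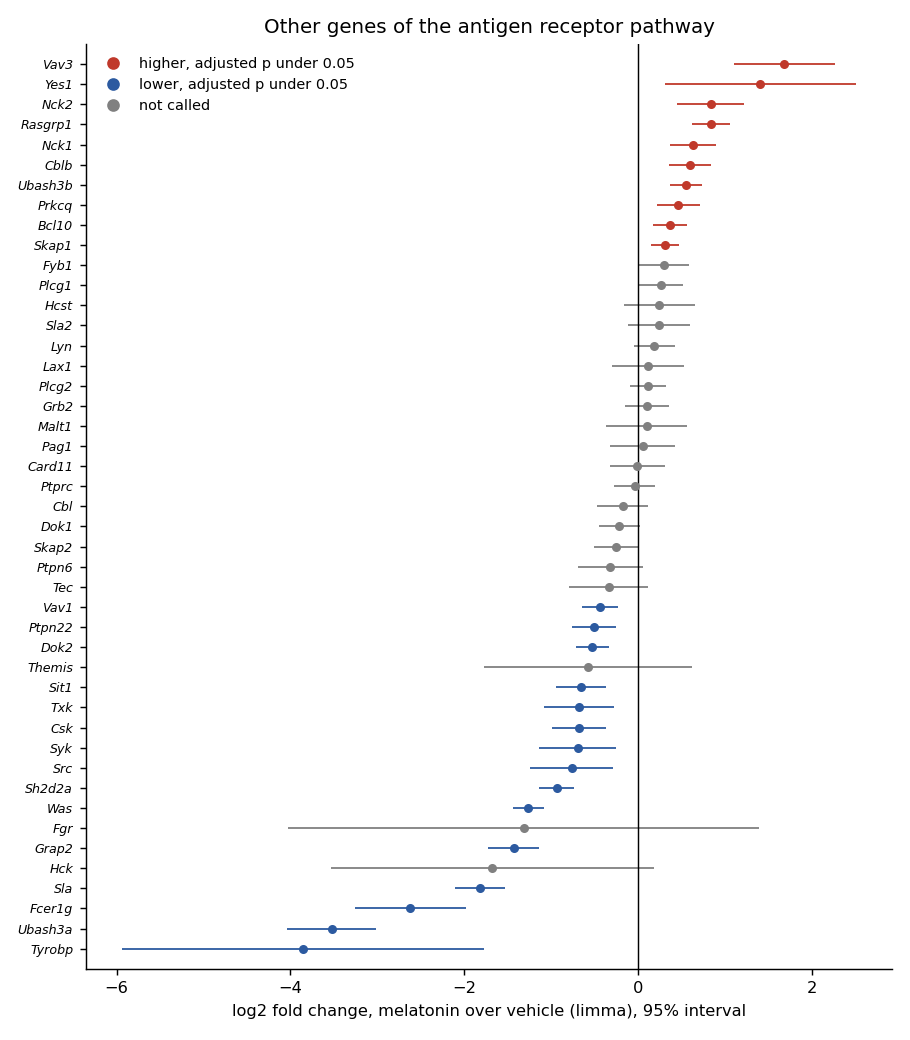
Log2 fold change of melatonin over vehicle (limma, points) with the 95% interval (bars) for 45 of the 46 tested genes of the wider pathway list, ordered by value and coloured by call. Of those drawn, 10 lie to the right of 0 with a call and 15 to the left, from *Vav3* at 1.69 down to *Tyrobp* at -3.85.

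Among the 9990 tested genes whose mean was 100 normalized counts or more, those whose pattern over the 6 libraries was most like that of *Lck* on the log2 scale were *Cln3* (Pearson r = 0.9997), *4931406G06Rik* (r = 0.9994) and *1500009L16Rik* (r = 0.9990). Their melatonin values were as even as those of *Lck*, for example 588, 548 and 576 normalized counts for *Cln3*, against 1336, 1287 and 1256 with vehicle. For *Cd3e*, the most similar was its neighbour *Cd3g* (r = 0.9983), followed by *Pdlim2* (r = 0.9977) and *Fah* (r = 0.9971). In these genes melatonin replicate 1 lay between the other melatonin libraries and the vehicle libraries, as in *Cd3e*. The 6 points of each correlation share the split by treatment, and r is given as a description.

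Neighbouring genes were read beside the CD3 cluster and *Lck*. On one side of the cluster, 3913 bases from *Cd3g*, *Ube4a* had a log2 fold change of 0.01 with a 95% interval from -0.23 to 0.25. On the other side, 45299 bases from *Cd3e*, *Mpzl3* had a log2 fold change of -0.53 (limma adjusted p = 0.0497), with overlapping groups and a call in 1 of 6 fits with 1 library left out. Both neighbours of *Lck* fell: *Hdac1*, 5506 bases away, by 0.43 on the log2 scale (limma adjusted p = 0.00222), and *Eif3i*, 18319 bases away, by 1.10 (limma adjusted p = 0.000129). The fall of *Lck* was larger than either.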

How the data were processed

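Bulk RNA sequencing was done on aILC2s with a low-input kit that does not mark the strand. The authors trimmed and aligned the reads in Partek Flow with STAR to mm39, divided them among Gencode M33 genes by an E/M algorithm, left out genes with fewer than 10 counts and applied the median ratio method. What they deposited is a signal, estimated counts over a size factor for each library, here called normalized counts. At a tolerance of 0.01, 64.7% of values were whole multiples of 1 read, so whole reads were not recovered and no count test was run. Groups came from the sample titles.

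Groups were compared with limma (version 3.58.1, R 4.3.3, lmFit and eBayes with trend) on log2(normalized count + 1) by treatment alone. Genes that reached 10 in any sample entered, 14419 in all, and p-values were adjusted over them by Benjamini-Hochberg, with a threshold of 0.05. Adding 1 understates the change of low genes. The script was tested on simulated data. Ratios of genes per length were compared by an exact permutation test. Positions, lengths and starts came from GENCODE M39 on GRCm39. Tables were made with pandas 2.3.3 and figures with matplotlib 3.10.9. The alternatives tried were other pseudocounts, filters, scalings and models, a replicate block and leaving out libraries.

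Named are the 9 genes; of the wider list, called genes whose mean was 100 or more and whose log2 fold change was 1 or more in size, and 11 chosen regulators; receptor constant genes and coreceptors; the 3 genes most like *Lck* and *Cd3e*; and nearest listed neighbours. Not all genes under this rule are reported here. Further pathway genes (*Ubash3b*, *Sla2*, *Rasgrp1*, *Nck1*, *Nck2*, *Tyrobp* and those named only as called) were named after their values were seen, for their kinship to or shared place with genes the rule named. The 9 genes, the lists and the motifs were chosen with earlier results of these data known.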

Additional observations from a re-analysis of the deposited data

How the results depend on the processing

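*Cd247*, *Cd3e*, *Cd3g*, *Fyn* and *Lck* kept their direction and their call in all 19 alternatives, *Lck* between -2.81 and -2.56 on the log2 scale. Leaving out each library in turn gave -3.15 to -1.74 for *Cd3d*, -0.58 to -0.095 for *Zap70*, -0.62 to -0.29 for *Lat* and 0.23 to 0.45 for *Lcp2*, and 1 to 2 genes of the 9 called higher. Between 4 and 6 were called lower, with 4 without each vehicle library and without melatonin replicate 2, and 4 also at an adjusted p of 0.01. *Cd3d* was also not called with a pseudocount of 0.1 (-3.73) or quantile normalization (-1.70), *Lat* without the trend (-0.45) or with melatonin replicate 1 as the only melatonin library (-0.11), and *Lcp2* without the trend (0.34). *Zap70* was called lower with sample weights (-0.47) and reversed with melatonin replicate 1 as the only melatonin library (0.36). Corrections for transcript length and GC content, chosen after seeing the data, gave -0.38 and -0.38 for *Lat*, not called, and the GC correction gave 0.31 for *Lcp2*, not called. With it, without the trend or at an adjusted p of 0.01, 1 of the 9 was called higher. The cause was not tested. *Cd3d* has no value among genes whose mean is 100 or more. The median over all genes lay between -0.02 and 0.05 in every setting tried.

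Replicate numbers are shared by the groups, but same-numbered libraries did not deviate together (correlations -0.05, 0.01 and -0.05). With the replicate number as a block, *Cd3d* kept its log2 fold change of -2.37 and was no longer called, and no other of the 9 genes changed its call.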

Other observations

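Markers of other cell types were also read in the same libraries. The B cell genes *Ms4a1* and *Pax5* were not listed, while *Cd79b*, the ITAM chain of the B cell receptor, fell from 297 ± 16.9 to 142 ± 15.6 normalized counts (SD, n = 3, log2 fold change -1.06, limma adjusted p = 0.000453) without overlap. Of the mast cell or basophil markers, *Cpa3* alone was tested and was not called. The alveolar and airway secretory genes *Sftpc* and *Scgb1a1* were at 155, 122 and 389 and at 95.2, 21.5 and 1045 normalized counts with vehicle and at or under 6.54 in all melatonin libraries, while *Epcam* rose from 667 ± 67.6 to 1097 ± 116 (SD, n = 3, log2 fold change 0.72, limma adjusted p = 0.00107). Among the ILC2 markers, *Klrg1* fell from between 6207 and 7361 to between 1491 and 1536, and *Il1rl1*, which encodes the IL-33 receptor ST2, rose from between 7698 and 8735 to between 10498 and 16787.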
